A study of Caenorhabditis elegans with 6 samples.

Results

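The epidermis of the nematode Caenorhabditis elegans makes small secreted antimicrobial peptides, and 8 of their genes were followed here: nlp-27, nlp-28, nlp-29, nlp-30, nlp-31 and nlp-34, which encode neuropeptide-like proteins, and cnc-2 and cnc-4, which encode caenacins. They were taken by name and not by a measured value, although earlier results of these data were known. All 8 were found among the 20190 genes of the deposited count table. Messenger RNA of whole first-stage (L1) larvae was counted in 6 libraries from 3 strains, 2 libraries each. HW3826 carries the array maIs105, in which the promoter of col-19, a collagen gene of the adult epidermis, drives GFP. GR1395 carries the array mgIs49, which holds the promoter of mlt-10, a gene active in the epidermis around each molt, driving a short-lived GFP, together with a ttx-3 reporter that marks a pair of interneurons. N2 is the wild-type laboratory strain and carries no array. A protocol text names the maIs105 strain VT1367 and spells the mgIs49 strain GR1935, and how those names relate to the sample titles is not stated further. All larvae had been starved and held overnight in M9 buffer, so that they started together, and were then kept at 25 °C, where they developed for 4 hours. The genomic site of either array, and the number of outcrosses of either strain, are not given in the labels, so an effect of an array and an effect of its strain's background cannot be told apart. Whether a strain's 2 libraries came from separate cultures is not stated, so p-values here measure library-to-library spread, possibly technical.

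When a fungus drills through the cuticle or a needle wounds it, the epidermis of C. elegans switches on nlp-29 and its neighbours through a p38 MAP kinase cascade (TIR-1, NSY-1, SEK-1 and PMK-1) that ends on the STAT-like factor STA-2. Osmotic stress and loss of furrow collagens of the cuticle also raise nlp-29, and the caenacin gene cnc-2 is switched on by a separate route, the TGF-beta ligand DBL-1. Purified NLP-31 has antifungal activity, which is part of the basis for calling the family antimicrobial. None of these stimuli was part of the sampling described in the labels.

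The libraries held between 42593688 and 54957641 counts, and the 8 genes took between 0.0114% and 0.0189% of them. Levels are given as CPM, the counts of a gene in every 1000000 counts of a library after trimmed-mean scaling, and the 3 counts taken as the detection floor of a library were worth 0.0528 to 0.0704 CPM, which allows for counting error alone. In whole animals, fewer cells of a type and less RNA per cell cannot be told apart. Of 10 epidermal marker genes, 9 were above the floor in the HW3826 libraries, 9 in the GR1395 libraries and 10 in the N2 libraries, and the gene at or near the floor was rol-6, with 1 to 7 counts in any library. The summed level of the epidermal markers was 259 to 283 CPM in HW3826, 245 to 270 CPM in GR1395 and 232 to 266 CPM in N2.

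The nlp genes lie in 1 run of 10946 bases on chromosome V, from 3978825 to 3989770 in WBcel235, the assembly behind ce11. In order along the chromosome the run holds nlp-34 (3978825 to 3979134, minus strand), nlp-31 (3980055 to 3980622), nlp-30 (3981980 to 3982741), nlp-29 (3984425 to 3984847), nlp-28 (3987900 to 3988316) and nlp-27 (3989378 to 3989770), the last 5 on the plus strand. The 2 cnc genes lie elsewhere on the same chromosome, in a run of 2989 bases: cnc-4 (1447195 to 1447707, plus strand) and cnc-2 (1449665 to 1450183, minus strand), with cnc-3 between them. Each member except cnc-2 has 1 annotated transcript of 2 exons, cnc-2 has 3 transcripts, and none overlaps another annotated gene. The nlp genes of the run are related copies. How reads that match several copies were counted is not given in the sources used here, so the division of counts among them is uncertain.

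All 8 genes were detected in every library and all 8 were among the 15024 genes that passed the expression filter. Compared per length of gene, nlp-29 had the highest mean in each strain, at 112 ± 19.8 CPM per kb in HW3826, 104.1 ± 36.6 in GR1395 and 111 ± 15.6 in N2 (SD, n = 2 each). It overlapped nlp-27 in HW3826, and both nlp-27 and nlp-34 in GR1395. Only in N2 did it stand above every other member without overlap. In N2 it stood above nlp-31 at 77.9 ± 3.41 CPM per kb, nlp-27 at 68.8 ± 12.799 and nlp-28 at 59.2 ± 4.33, and each of these overlapped its neighbour in the order. Then came nlp-34 at 18.6 ± 7.98 CPM per kb, nlp-30 at 11.6 ± 0.406, cnc-4 at 7.91 ± 1.88 and cnc-2 at 1.16 ± 0.723, with no overlap between neighbours. The order was not the same in the array strains. In HW3826, nlp-34 at 43.7 ± 2.18 CPM per kb stood above nlp-28 at 33.5 ± 4.10, and cnc-4 at 16.8 ± 4.82 stood above nlp-30 at 11.9 ± 1.77, without overlap in either pair. In GR1395, nlp-34 averaged 67.5 ± 42.3 CPM per kb. It overlapped nlp-29, nlp-27 at 101 ± 31.9, nlp-31 at 65.0 ± 17.03 and nlp-28 at 47.8 ± 4.18. The per-length level of nlp-30 rests on an annotated length of 714 bases, against 253 to 451 bases for the other members.

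**Figure D1:**
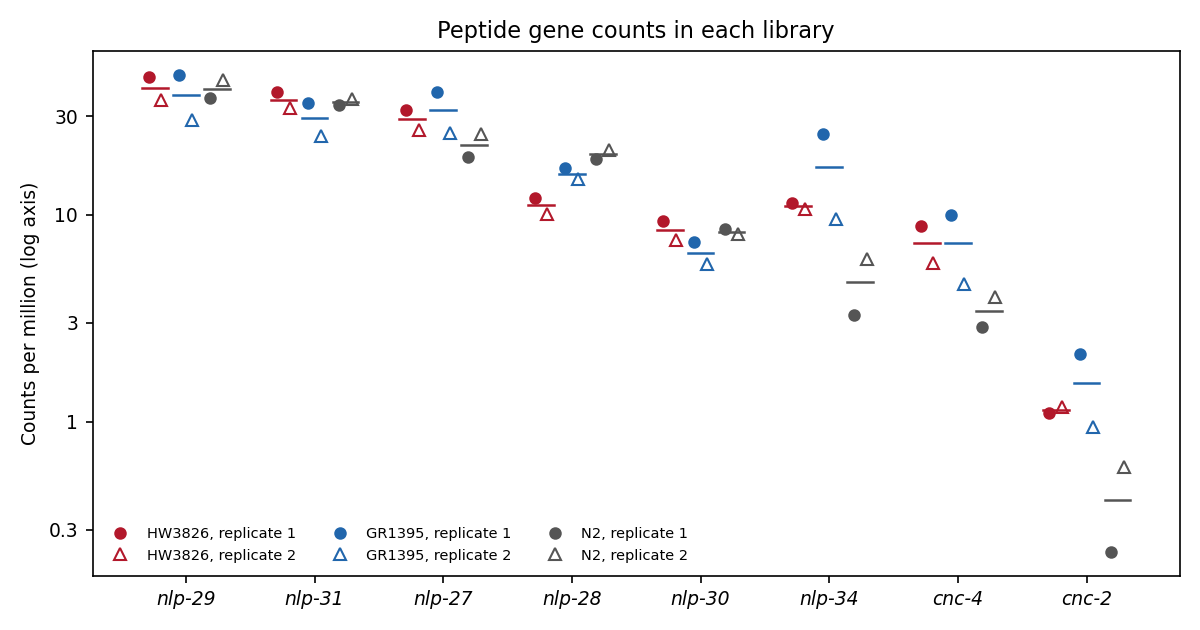
Levels in CPM of the 8 peptide genes in each library on a log axis, with filled circles for replicate 1, open triangles for replicate 2 and a bar for the mean of both. The nlp-28 points of HW3826, at 12.04 and 10.13 CPM, lie below those of N2 at 18.6 and 20.6 CPM, while the points of nlp-34, cnc-4 and cnc-2 lie lowest in N2.

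In HW3826, nlp-28 was lower than in N2, and it was the only one of the 8 genes whose difference passed the test. The gene had 12.04 and 10.13 CPM in the HW3826 libraries, against 18.6 and 20.6 CPM in the N2 libraries. Both HW3826 libraries lay below both N2 libraries. The log2 difference was -0.82 ± 0.11 (SE), a fold of 0.566, with an adjusted p of 0.000872 in edgeR's quasi-likelihood test. So 1 of 8 members was called lower and 0 of 8 higher, where 6% of all tested genes were called, 3.54% higher and 2.46% lower. Before adjustment 1 member, cnc-2, was higher at a p under 0.05, and DESeq2 and limma also called 0 members higher. The nlp-28 call held when any 1 of the 6 libraries was left out, with log2 differences between -0.96 and -0.71 and an adjusted p of at most 0.00689.

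Of the other members, nlp-34, nlp-27, cnc-2 and cnc-4 had both HW3826 libraries above both N2 libraries without passing the test. The share of all tested genes with libraries separated in this way was not counted, so no background stands beside these members. For nlp-34 the HW3826 libraries held 11.5 and 10.7 CPM, against 3.28 and 6.14 CPM in the N2 libraries. Its log2 difference was 1.23 with a 95% interval of -0.64 to 3.10 (adjusted p = 0.430). For cnc-2 the HW3826 libraries held 58 and 56 counts, or 1.11 and 1.18 CPM, against 10 and 27 counts, or 0.235 and 0.603 CPM, in the N2 libraries. The log2 difference was 1.43, with an interval of 0.38 to 2.48 (adjusted p = 0.116). It was 0.92 without N2 replicate 1 and 2.27 without N2 replicate 2. Those few counts in N2 limit the precision of the fold. For cnc-4 the levels were 8.79 and 5.82 CPM in HW3826, against 2.86 and 4.02 CPM in N2, a log2 difference of 1.09 with an interval of -0.08 to 2.25 (adjusted p = 0.289). For nlp-27 they were 32.2 and 25.7 CPM in HW3826, against 18.9 and 24.7 CPM in N2, a log2 difference of 0.41 with an interval of -0.27 to 1.09 (adjusted p = 0.500). The spread that set these intervals was estimated over all strains, GR1395 included. With only the HW3826 and N2 libraries in the fit, nlp-34 (log2 difference 1.23, adjusted p = 0.0121) and cnc-4 (1.09, adjusted p = 0.0150) passed the test. Both also passed when either GR1395 library alone was left out (adjusted p from 0.0129 to 0.0173).

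The remaining nlp genes had overlapping libraries in HW3826 and N2. The best-studied infection-response gene, nlp-29, had 46.2 and 36.0 CPM in HW3826, against 36.5 and 44.6 CPM in N2, and its log2 difference of 0.02 had an interval of -0.72 to 0.76. The antifungal peptide gene nlp-31 had 39.3 and 32.8 CPM in HW3826, against 34.03 and 36.21 CPM in N2, with an interval of -0.36 to 0.44. For nlp-30 the levels were 9.38 and 7.58 CPM in HW3826, against 8.49 and 8.08 CPM in N2, with an interval of -0.28 to 0.35. The median log2 difference over the 8 members was 0.22, against -0.01 over all genes tested.

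In GR1395, cnc-2 was higher than in N2, and no other member passed the test. The GR1395 libraries held 121 and 45 counts of cnc-2, or 2.13 and 0.944 CPM, against 10 and 27 counts, or 0.235 and 0.603 CPM, in the N2 libraries. Both GR1395 libraries lay above both N2 libraries, and the second GR1395 library was nearer to N2 than the first. The log2 difference was 1.87 ± 0.47 (SE), a fold of 3.67, with an adjusted p of 0.0211 in edgeR. The call was lost without N2 replicate 1 (log2 difference 1.36, adjusted p = 0.0667) and without GR1395 replicate 1 (1.16, adjusted p = 0.204), and without N2 replicate 2 the log2 difference was 2.71. With 1 of 8 members called higher and 0 lower, the background was 16.1% of all tested genes, 7.93% higher and 8.15% lower. Before adjustment 2 members, nlp-28 and nlp-30, were lower at a p under 0.05, DESeq2 and limma also called 0 lower, and nlp-28 was called lower in the fit without an expression filter (adjusted p = 0.0486). DESeq2 called 2 members higher, nlp-34 beside cnc-2 (adjusted p = 0.0288 and 0.00546).

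The same 4 members that lay above N2 in HW3826 also lay above it in GR1395. Both comparisons use the same N2 libraries, so the values are given side by side and not as 2 independent results. The share of all tested genes with libraries separated in either direction between GR1395 and N2 was not counted. For nlp-34 the GR1395 libraries held 24.6 and 9.51 CPM, against 3.28 and 6.14 CPM in N2. The log2 difference was 1.86, with an interval of 0.01 to 3.71 (adjusted p = 0.156). The gap between the GR1395 libraries was larger than the gap from the lower of them to N2. For cnc-4 the levels were 10.02 and 4.62 CPM in GR1395, against 2.86 and 4.02 CPM in N2, a log2 difference of 1.095 with an interval of -0.06 to 2.25 (adjusted p = 0.176). For nlp-27 they were 39.3 and 25.0 CPM in GR1395, against 18.9 and 24.7 CPM in N2, a log2 difference of 0.56 with an interval of -0.12 to 1.24 (adjusted p = 0.226). For nlp-27 the lower GR1395 library and the higher N2 library were nearly level. Without GR1395 replicate 2, the library with less of every member, nlp-34 (log2 difference 2.38, adjusted p = 0.000821), cnc-4 (1.54, adjusted p = 0.00339) and nlp-27 (0.85, adjusted p = 0.00823) passed the test beside cnc-2, 4 members in all. Without GR1395 replicate 1 no member was called higher, and the log2 differences were 1.008 for nlp-34 (adjusted p = 0.0689), 0.42 for cnc-4 (adjusted p = 0.411) and 0.19 for nlp-27 (adjusted p = 0.560), so the size of these differences rested on which GR1395 library was used.

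On the other side, nlp-28 and nlp-30 lay below N2 in both GR1395 libraries. The nlp-28 levels were 16.8 and 14.8 CPM in GR1395, against 18.6 and 20.6 CPM in N2, a log2 difference of -0.31 with an interval of -0.55 to -0.07 (adjusted p = 0.0779). The nlp-30 levels were 7.34 and 5.79 CPM in GR1395, against 8.49 and 8.08 CPM in N2, a log2 difference of -0.33 with an interval of -0.65 to -0.01 (adjusted p = 0.143). Neither passed the test, though nlp-28 did without N2 replicate 1 (log2 difference -0.38, adjusted p = 0.0459). The libraries of nlp-29 and nlp-31 overlapped between the strains. The nlp-29 levels were 47.6 and 28.6 CPM in GR1395, against 36.5 and 44.6 CPM in N2 (log2 difference -0.09, interval -0.83 to 0.66), and the nlp-31 levels were 34.8 and 23.9 CPM in GR1395, against 34.03 and 36.21 CPM in N2 (-0.26, interval -0.66 to 0.14). Without GR1395 replicate 1, nlp-31 passed as lower (-0.56, adjusted p = 0.0300). The median over the 8 members was 0.24, against 0.01 over all genes tested.

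Between the array strains, nlp-28 was lower in HW3826 than in GR1395 and was again the only member called. Its levels of 12.04 and 10.13 CPM in HW3826 stood below 16.8 and 14.8 CPM in GR1395, a log2 difference of -0.51 ± 0.11 (SE) with an adjusted p of 0.00980. The call was lost without HW3826 replicate 2 (log2 difference -0.39, adjusted p = 0.0943) and without GR1395 replicate 1 (-0.42, adjusted p = 0.118). Here 1 of 8 members was called lower and 0 higher, against a background of 14.5% of tested genes, 7.33% higher and 7.17% lower. Before adjustment 1 member, nlp-30, was higher at a p under 0.05, and DESeq2 and limma called 0 higher. The nlp-30 libraries did not overlap, at 9.38 and 7.58 CPM in HW3826 against 7.34 and 5.79 CPM in GR1395, but the log2 difference of 0.37 with its interval of 0.05 to 0.68 did not pass (adjusted p = 0.114). The other 6 members had overlapping libraries. Of these, nlp-31 passed as higher without GR1395 replicate 1 (0.59, adjusted p = 0.0178) and nlp-34 as lower without GR1395 replicate 2 (-1.15, adjusted p = 0.0200). For cnc-4 the log2 difference was -0.01, with an interval of -1.09 to 1.07, so a difference of about 2-fold either way cannot be told from none at this spread.

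**Figure D2:**
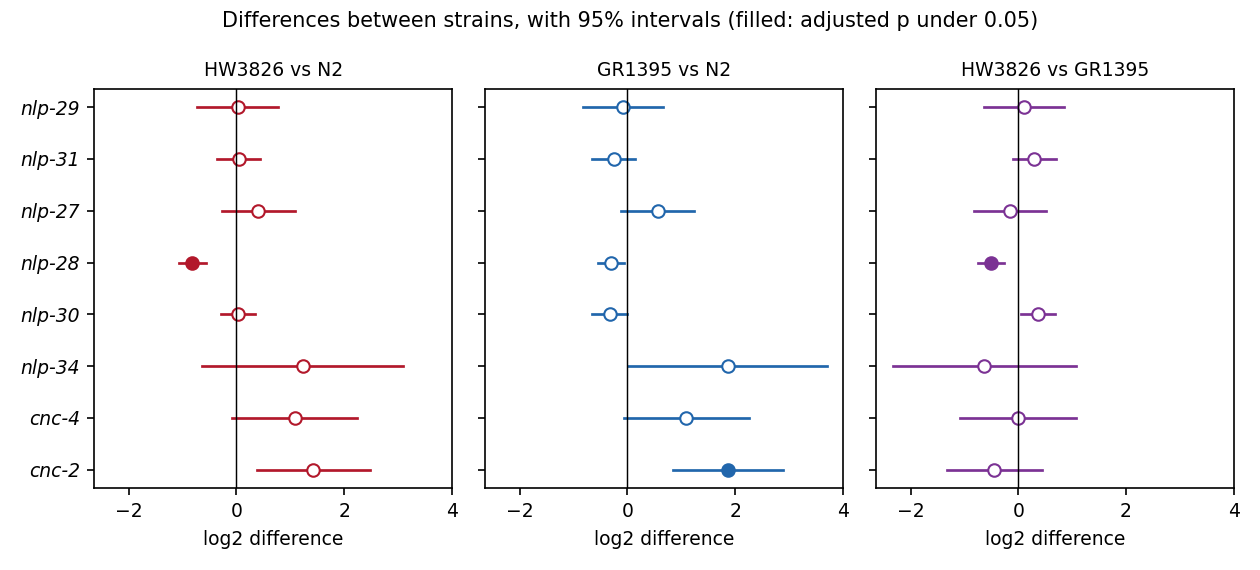
Log2 differences of the 8 peptide genes in 3 comparisons, each array strain against N2 and HW3826 against GR1395, with points for the estimate and lines for its 95% interval, filled where the adjusted p is under 0.05. The intervals of nlp-28 are among the shortest and those of nlp-34, cnc-4 and cnc-2 the longest, and the filled points are nlp-28 in the comparisons that include HW3826 and cnc-2 in GR1395 against N2.

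The genes of the nlp run took different shares of its counts in the 3 strains. The 6 nlp genes together held 151 and 123 CPM in HW3826, 170 and 108 CPM in GR1395, and 120 and 140 CPM in N2, and the 3 ranges overlapped. Within that sum, nlp-28 took 8.001% and 8.24% in HW3826, 9.86% and 13.8% in GR1395, and 15.5% and 14.7% in N2. The 95% Wilson intervals of the HW3826 shares, 7.42 to 8.62% and 7.56 to 8.97%, lay below those of the GR1395 libraries, which began at 9.28% and 12.9%, and below those of the N2 libraries, which began at 14.5% and 13.8%. Those intervals cover counting error only. In contrast, nlp-34 took 7.61% and 8.69% in HW3826, 14.5% and 8.83% in GR1395, and 2.74% and 4.38% in N2, the lowest shares being those of N2. The share of nlp-27 was likewise lowest in N2, with 21.4% and 20.9% in HW3826, 23.04% and 23.2% in GR1395, and 15.8% and 17.6% in N2. The share of nlp-29, the largest member of the sum, varied little, between 26.6% and 31.8% over the 6 libraries. For the caenacins the sum of cnc-2 and cnc-4 was 9.89 and 6.996 CPM in HW3826, 12.1 and 5.56 CPM in GR1395, and 3.10 and 4.62 CPM in N2, with every library of either array strain above both N2 libraries.

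**Figure D3:**
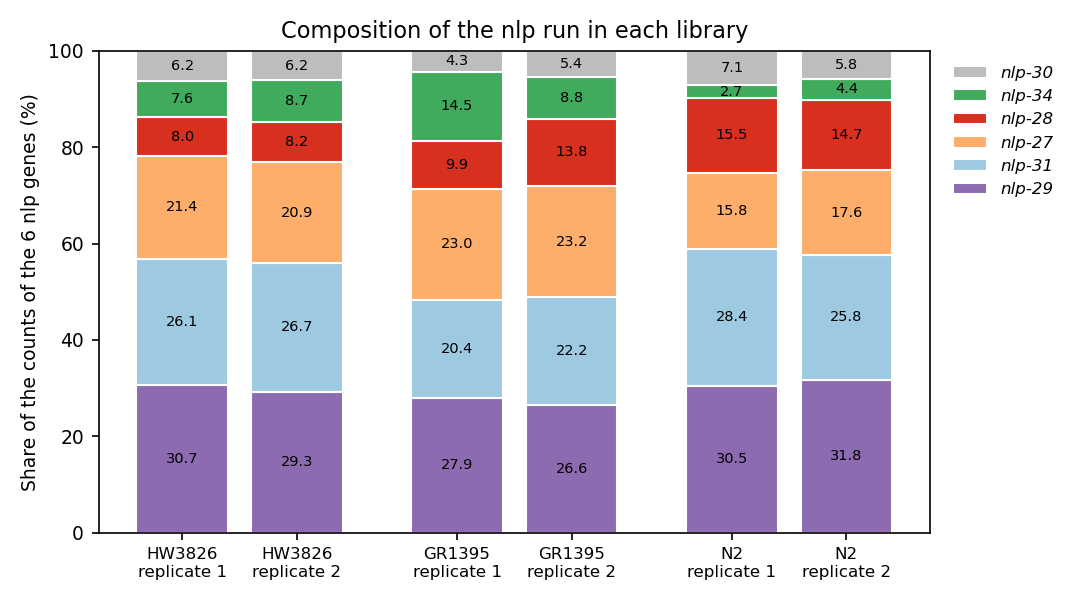
Stacked bars of the share of each of the 6 nlp genes in their summed counts, in percent, for each library of HW3826, GR1395 and N2. The nlp-28 segment is smallest in HW3826, at 8.001% and 8.24%, and the nlp-34 segment is smallest in N2, at 2.74% and 4.38%.

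Across the 6 libraries the members fell into patterns that crossed the chromosomal runs. As a description over 6 libraries, with the grouping made after the values were seen, the log2 levels of nlp-27, nlp-34, cnc-2 and cnc-4 correlated with each other at r between 0.91 and 0.98, although cnc-2 and cnc-4 lie in the other run. The levels of nlp-29, nlp-30 and nlp-31 correlated at r between 0.70 and 0.94. Between those 2 groups of genes r ran from -0.28 to 0.59. The level of nlp-28 had r between -0.46 and 0.18 with every other member. All points share their libraries and scaling, and strain and replicate differences both enter these values.

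How far the 2 libraries of a strain differed in these genes varied with the strain. The difference was larger than that of the median tested gene for all 8 members in GR1395, for 6 of 8 in HW3826 (not nlp-34 or cnc-2) and for 5 of 8 in N2 (not nlp-28, nlp-30 or nlp-31). In GR1395, all 8 members were higher in replicate 1 than in replicate 2, by 0.18 (nlp-28) to 1.37 (nlp-34) on the log2 scale, where the median absolute difference over all tested genes was 0.121. In HW3826, 7 of 8 were higher in replicate 1, by up to 0.59 (cnc-4), against a median of 0.120. In N2, 7 of 8 were lower in replicate 1, by up to 1.36 (cnc-2), against a median of 0.160. The exceptions in direction were cnc-2 in HW3826 and nlp-30 in N2. The share of all tested genes higher in replicate 1 was not counted, so these directions have no background beside them. The biological coefficient of variation estimated by edgeR was 40.8% for nlp-34, a value exceeded by 0.280% of tested genes, and it was 29.4% for cnc-4, 26.8% for cnc-2, 19.6% for nlp-29, 18.2% for nlp-27, 11.99% for nlp-31 and 10.1% for nlp-30. The median tested gene had 8.32%. At 8.15%, nlp-28 was the only member below that median.

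The members are short genes, of 253 to 714 bases, where the median tested gene has 1290, and short genes as a class moved with the library. At the lengths of the members, the trend of log2 level with length was 0.06 to 0.13 above its mean over the libraries in GR1395 replicate 1, 0.03 to 0.10 below it in GR1395 replicate 2, and 0.06 to 0.11 above it in N2 replicate 2. Relative to that mean it was 0.013 to 0.029 in N2 replicate 1. Both HW3826 libraries lay below the mean, at -0.036 to -0.028 in replicate 1 and -0.083 to -0.029 in replicate 2. With the trend removed, the nlp-28 difference between HW3826 and N2 was -0.70 (adjusted p = 0.000471) and the cnc-2 difference between GR1395 and N2 was 1.91 (adjusted p = 0.00714), and nlp-30 passed the test between HW3826 and GR1395 (log2 difference 0.42, adjusted p = 0.0460).

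Most genes next to the runs were near the floor or moved on their own, but the caenacin gene cnc-11 was called higher in GR1395, as cnc-2 was. Beside the nlp run, the chemoreceptor-type genes str-82, str-83, srx-62 and srh-8 and the gene K09D9.9 had at most 15 counts in any library, str-83 among them although it ends 13 bases from nlp-34. The cytochrome P450 gene cyp-34A10, on the far side of str-82, was at 0.819 and 1.03 CPM in HW3826, against 3.42 and 1.79 CPM in N2, and was called lower (log2 difference -1.49, adjusted p = 0.0312). That call was lost without N2 replicate 1 or either library of HW3826 (reaching an adjusted p of 0.220). In GR1395 cyp-34A10 was at 3.75 and 5.65 CPM (log2 difference from N2 0.85, adjusted p = 0.0780). Between cnc-4 and cnc-2, the caenacin gene cnc-3 had 28.2 and 28.4 CPM in HW3826, against 19.1 and 22.9 CPM in N2, a log2 difference of 0.43 (adjusted p = 0.0430). This call was lost without N2 replicate 1 or either library of HW3826 (reaching an adjusted p of 0.191), by limma and under a stricter expression filter. In GR1395 cnc-3 had 22.9 and 18.6 CPM, overlapping N2, with a log2 difference of -0.02 and an interval of -0.26 to 0.23. So cnc-3 was not among the genes that rose in GR1395, where cnc-2 beside it did. At the outer end of the cnc neighbourhood, hacd-1, which encodes a hydroxyacyl-CoA dehydrogenase, was at 28.3 and 29.7 CPM in HW3826, against 11.99 and 10.25 CPM in N2 (log2 difference 1.38, adjusted p = 0.00145). The call was lost without N2 replicate 2 (adjusted p = 0.0572). The chemoreceptor-type gene srj-23 was not called in either strain against N2, chil-14 had at most 12 counts in a library, and cnc-1 and cnc-5 had at most 5. Beyond cnc-1 and cnc-5, cnc-11 had 2.52 and 0.944 CPM in GR1395, against 0.469 and 0.513 CPM in N2. Its log2 difference was 1.82 (adjusted p = 0.0193, edgeR), a call lost in leave-outs. In HW3826 cnc-11 was not called (log2 difference -0.38). Tested directly by edgeR, HW3826 was lower than GR1395 in cyp-34A10 (log2 difference -2.34, adjusted p = 0.00139) and cnc-11 (-2.20, adjusted p = 0.00830). It was higher in hacd-1 (1.22, adjusted p = 0.00143), srj-23 (1.40, adjusted p = 0.00735) and cnc-3 (0.44, adjusted p = 0.0200). The cyp-34A10 and hacd-1 calls held in each leave-out, and the others did not. Over all tested genes 7.33% were called higher there and 7.17% lower.

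**Figure D4:**
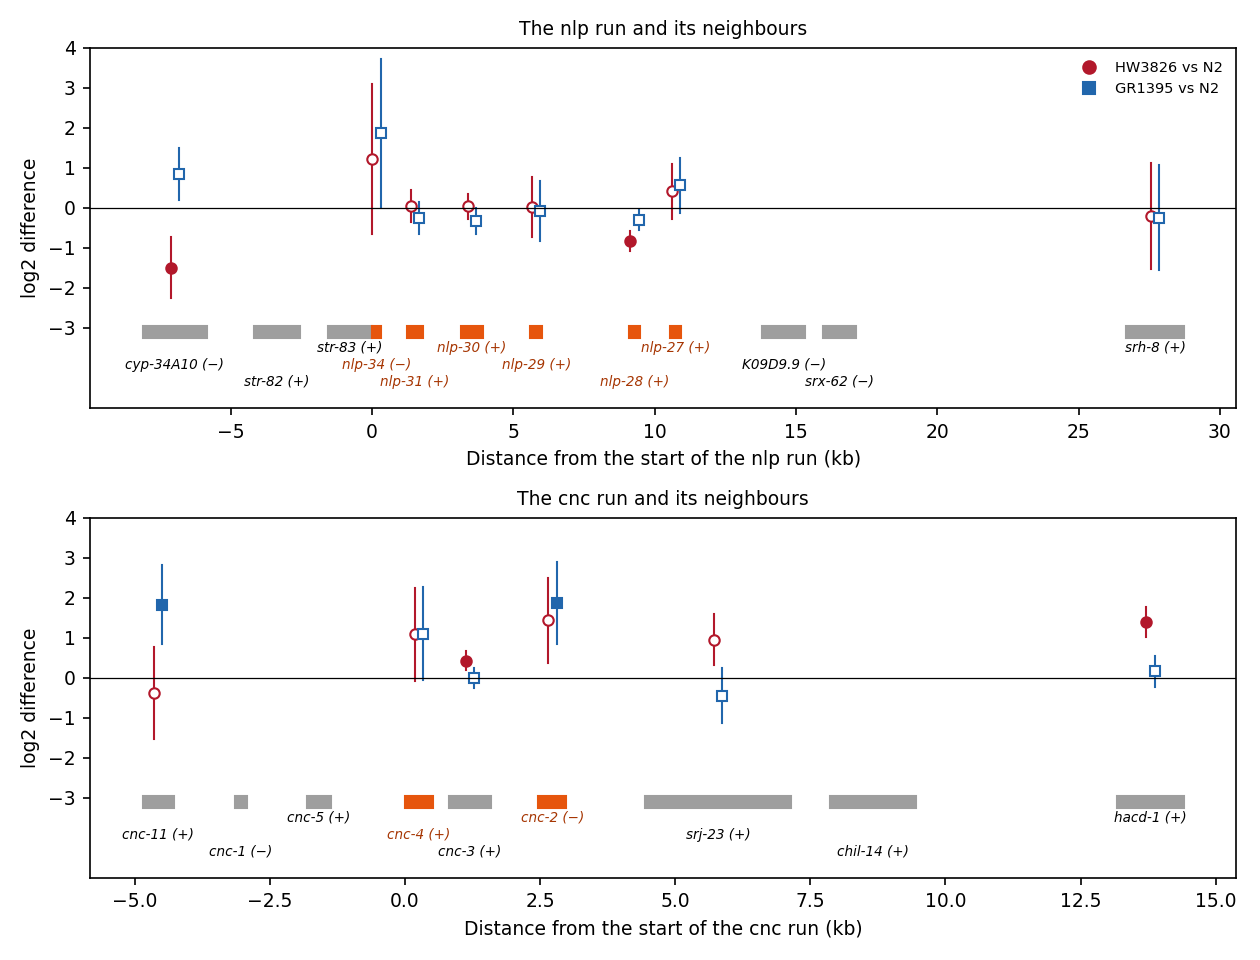
Log2 differences of HW3826 (circles) and GR1395 (squares) from N2, with 95% intervals, along the nlp run and the cnc run by distance in kb from the start of each run. Orange boxes are the members, grey boxes other genes with their strand, filled symbols have an adjusted p under 0.05, and genes with no symbol had too few counts to be tested. In the nlp run the filled circle of nlp-28 at -0.82 stands among unfilled neighbours, and in the cnc run cnc-3 lies near 0 in GR1395 between cnc-4 at 1.095 and cnc-2 at 1.87.

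Other genes of related short peptides were then set beside the members. Of 17 such nlp, cnc and fip genes in the table, 13 could be tested. In HW3826 against N2, 1 was called higher by edgeR (cnc-3; 1 by DESeq2 and 0 by limma) and 0 lower (1 lower at an unadjusted p under 0.05, and 0 by DESeq2 or limma). Over all tested genes 3.54% were called higher and 2.46% lower there. In GR1395 against N2, 3 were called higher (cnc-6, cnc-7 and cnc-11) and 2 lower (nlp-24 and nlp-33), beside 7.93% and 8.15% of all tested genes. The caenacin gene cnc-6 had 2.94 and 1.22 CPM in GR1395, against 0.446 and 0.737 CPM in N2 (log2 difference 1.82, adjusted p = 0.0141), and cnc-11 had 2.52 and 0.944 CPM in GR1395, against 0.469 and 0.513 CPM in N2 (1.82, adjusted p = 0.0193). In HW3826 these genes were at 0.419 and 0.441 CPM and at 0.457 and 0.294 CPM, below both N2 libraries in each case but without passing the test (adjusted p = 0.676 and 0.768). In the direct comparison of HW3826 with GR1395 both were called lower, with log2 differences of -2.28 (adjusted p = 0.00498) and -2.20 (adjusted p = 0.00830). The counts of cnc-7 were 28 and 13 in GR1395, against 2 and 3 in N2, too few in N2 for a fold to be given (adjusted p = 0.0209). As for cnc-2, the first GR1395 library held more of each of these 3 genes than the second, and each call against N2 was lost without N2 replicate 1, without N2 replicate 2 or without GR1395 replicate 1 (adjusted p up to 0.197 for cnc-6, 0.196 for cnc-7 and 0.274 for cnc-11). The genes nlp-24 and nlp-33, which encode YGGW-type peptides like those of the nlp run, were called lower in GR1395. For nlp-33 the levels were 91.4 and 69.5 CPM in GR1395, against 104.2 and 111.3 CPM in N2 (log2 difference -0.42, adjusted p = 0.0447), and for nlp-24 they were 23.8 and 19.6 CPM in GR1395, against 26.5 and 34.3 CPM in N2 (-0.48, adjusted p = 0.0302). Both calls were lost without N2 replicate 2 or without GR1395 replicate 2, and that of nlp-33 also without N2 replicate 1 (adjusted p up to 0.397). The median log2 difference over the 13 tested genes was -0.06 in HW3826 and -0.02 in GR1395.

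Of 19 genes of the p38 pathway that controls the nlp run in the epidermis, 7 were called higher and 1 lower in GR1395 against N2, and 2 higher and 0 lower in HW3826 against N2, by edgeR. Of all tested genes 7.93% were higher and 8.15% lower in GR1395, and 3.54% higher and 2.46% lower in HW3826. The 0 became 1 at an unadjusted p under 0.05 (elt-3) and stayed 0 by DESeq2 and limma. The list's median log2 difference was 0.12 in HW3826 and 0.23 in GR1395. The largest difference in GR1395 was that of cebp-1, a C/EBP-type transcription factor gene, at 147 and 120 CPM in GR1395, against 80.5 and 77.0 CPM in N2 (log2 difference 0.77 ± 0.10 SE, adjusted p = 0.000499). The phosphatase gene vhp-1, whose product switches off MAP kinases, had 254 and 230 CPM in GR1395, against 172 and 141 CPM in N2 (0.63, adjusted p = 0.00123). The STAT-like factor gene sta-2 had 52.5 and 50.7 CPM in GR1395, against 37.97 and 32.8 CPM in N2 (0.54, adjusted p = 0.00155). The Tribbles-kinase gene nipi-3 had 266 and 254 CPM in GR1395, against 200 and 178 CPM in N2 (0.46, adjusted p = 0.00287). These 4 calls held when any 1 library was left out. Without GR1395 replicate 1, they were the 4 called higher in the list.

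The other 3 genes called higher in GR1395 were tir-1, the adaptor at the head of the kinase cascade (log2 difference 0.47, adjusted p = 0.00495), dapk-1 (0.34, adjusted p = 0.0102), a kinase gene whose loss raises nlp-29, and tpa-1, a protein kinase C gene (0.34, adjusted p = 0.0128). All 3 were lost without GR1395 replicate 1, and tpa-1 also without N2 replicate 2 (adjusted p up to 0.0689 for tir-1, 0.122 for dapk-1 and 0.105 for tpa-1). With the length trend removed the dapk-1 call was also lost. The G-protein gene gpa-12 was called lower, at 17.1 and 18.6 CPM in GR1395, against 22.7 and 22.1 CPM in N2 (-0.33, adjusted p = 0.0286), a call lost without any 1 of the 4 libraries compared (adjusted p up to 0.213). The core kinases were not called in GR1395: the log2 differences were 0.26 for nsy-1 (interval 0.07 to 0.46), 0.15 for sek-1 (interval -0.0020 to 0.31) and 0.20 for pmk-1 (interval 0.0043 to 0.39). In HW3826 the 2 calls were dapk-1, at 92.4 and 90.1 CPM against 60.7 and 59.2 CPM in N2 (0.61, adjusted p = 0.000382), and tir-1, at 135 and 124 CPM against 103 and 88.9 CPM in N2 (0.44, adjusted p = 0.0127). The dapk-1 call held in each leave-out, and tir-1 was lost without N2 replicate 2, without HW3826 replicate 1 (adjusted p up to 0.108) or with the length trend removed. Without N2 replicate 1 the list had 5 genes called higher in HW3826. Between the array strains, 7.17% of all tested genes were called lower in HW3826 than in GR1395 and 7.33% higher. Against GR1395, HW3826 had lower cebp-1 (log2 difference -0.62, adjusted p = 0.00121), sta-2 (-0.42, adjusted p = 0.00539), nipi-3 (-0.34, adjusted p = 0.0127), vhp-1 (-0.37, adjusted p = 0.0195) and dcar-1, the receptor gene of the pathway (-0.28, adjusted p = 0.0470), and higher dapk-1 (0.26, adjusted p = 0.0321). Of these 6 calls, that of cebp-1 held in each leave-out, and without GR1395 replicate 1 it was the 1 called lower.

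**Figure D5:**
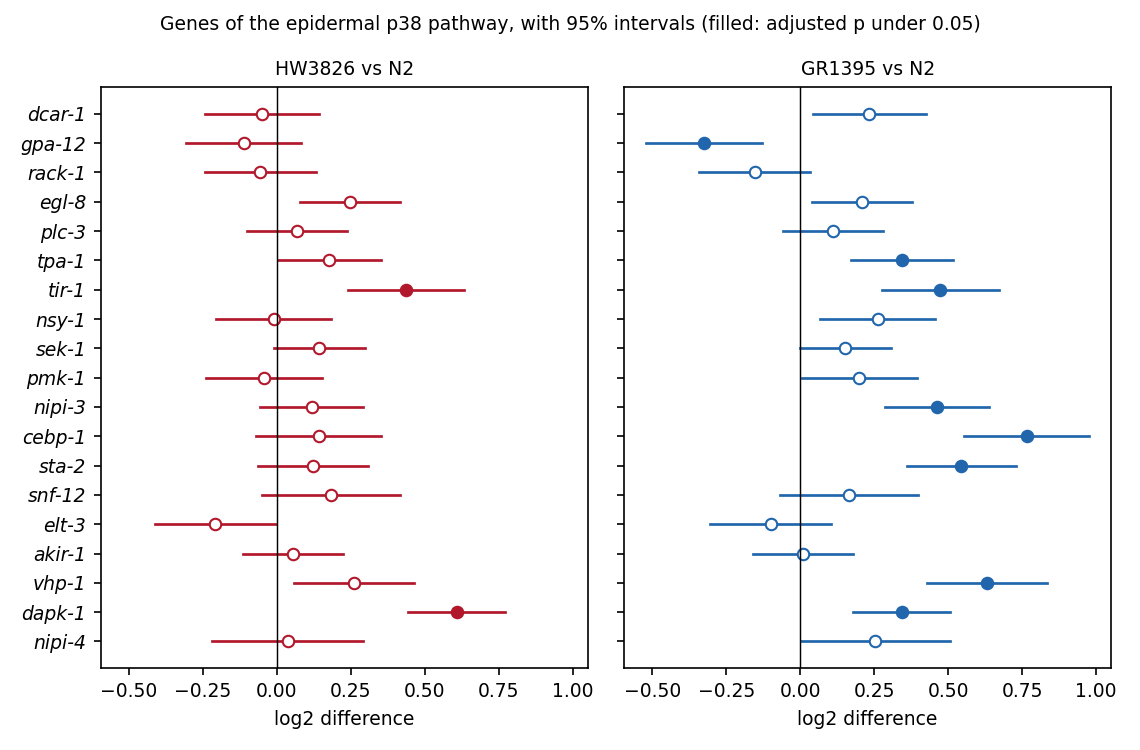
Log2 differences from N2 of the 19 genes of the epidermal p38 pathway in HW3826 and in GR1395, ordered from the receptor dcar-1 downward, with lines for 95% intervals and filled points where the adjusted p is under 0.05. In GR1395 the filled points to the right of 0 are tpa-1, tir-1, nipi-3, cebp-1, sta-2, vhp-1 and dapk-1, and in HW3826 they are tir-1 and dapk-1.

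In the DBL-1 pathway, which acts on cnc-2, 12 genes were tested, and its counts stand beside the same 3.54% higher and 2.46% lower of all tested genes in HW3826, and 7.93% and 8.15% in GR1395. The ligand gene dbl-1 was not called, with log2 differences of 0.17 in HW3826 (interval -0.02 to 0.36) and 0.23 in GR1395 (interval 0.04 to 0.42, adjusted p = 0.0954). In HW3826, edgeR called 0 higher (2 at an unadjusted p under 0.05, 0 by DESeq2 or limma) and 2 lower: sma-10, whose LRIG-type membrane protein acts with the receptors, at 76.1 and 68.6 CPM against 110.7 and 95.05 CPM in N2 (log2 difference -0.51, adjusted p = 0.00381), and the Smad gene sma-3, at 33.5 and 36.0 CPM against 45.9 and 41.7 CPM in N2 (-0.33, adjusted p = 0.0330). The sma-10 call was lost without HW3826 replicate 2 (adjusted p = 0.0506), and the sma-3 call without N2 replicate 1 or either library of HW3826 (reaching an adjusted p of 0.220). In GR1395, 2 were called higher (sma-4 by 0.32, adjusted p = 0.0148, and crm-1 by 0.31, adjusted p = 0.0150) and 2 lower. The lower ones were sma-10 (-0.28, adjusted p = 0.0436) and lon-1, a body-length gene that the pathway represses, at 71.7 and 84.0 CPM in GR1395 against 125 and 123 CPM in N2 (-0.67, adjusted p = 0.000380). Of these 4, the lon-1 call held in each leave-out. Those of sma-4, crm-1 and sma-10 were each lost without GR1395 replicate 1, and also without 1 or 2 other libraries (highest adjusted p = 0.147, 0.133 and 0.183). The crm-1 call was lost with the length trend removed, and sma-10 was not called by limma. The list's medians were 0.06 in HW3826 and 0.03 in GR1395.

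Lists tied to the other stimuli of nlp-29 gave mixed counts. Of 6 furrow collagen genes, whose loss raises nlp-29, 0 were called in either direction in HW3826 or in GR1395 against N2, by edgeR, DESeq2 or limma. At an unadjusted p under 0.05, 1 was higher and 0 lower in HW3826, and 0 were higher and 2 lower in GR1395. Between the array strains, 7.33% of all tested genes were called higher in HW3826 than in GR1395. Of the furrow collagen genes, 2 were: dpy-10, at 4.88 and 4.14 CPM in HW3826 against 2.52 and 2.52 CPM in GR1395 (log2 difference 0.84, adjusted p = 0.00604), and dpy-2, at 4.33 and 4.24 CPM in HW3826 against 2.92 and 2.62 CPM in GR1395 (0.63, adjusted p = 0.0335). Both were lost in leave-outs, dpy-10 without HW3826 replicate 1 or GR1395 replicate 1 (reaching an adjusted p of 0.0634) and dpy-2 without any 1 of the 4 libraries (adjusted p up to 0.158). Of 8 tested genes of the osmotic and glycerol response, 1 was higher and 1 lower in HW3826, and 2 were higher and 4 lower in GR1395, where 3.54% and 2.46% of all tested genes were higher and lower in HW3826, and 7.93% and 8.15% in GR1395. The glycerol-3-phosphate dehydrogenase gene gpdh-1, which hypertonic stress induces together with nlp-29, had 32.99 and 30.99 CPM in HW3826, 13.5 and 15.5 CPM in GR1395, and 25.4 and 25.6 CPM in N2. It was called lower in GR1395 (log2 difference -0.82, adjusted p = 0.000227) and not called in HW3826 (0.33, adjusted p = 0.0545). The inositol transporter gene hmit-1.1, another osmotic response gene, was lower in both, at 49.7 and 38.7 CPM in HW3826 and 53.7 and 59.0 CPM in GR1395, against 85.9 and 91.0 CPM in N2 (log2 differences -0.999 and -0.65, adjusted p = 0.000217 and 0.00248). The GR1395 call of hmit-1.1 was lost without N2 replicate 2 (adjusted p = 0.0633). The kinase gene wnk-1 was higher in HW3826 (0.47, adjusted p = 0.00961, lost without HW3826 replicate 1 at 0.0521 and with the length trend removed) and in GR1395 (0.53, adjusted p = 0.00301). The remaining calls in GR1395 were ptr-23, higher (0.32, adjusted p = 0.0132), and gpdh-2 (-0.29, adjusted p = 0.0256) and osm-11 (-0.28, adjusted p = 0.0262), lower. The ptr-23 call was lost without N2 replicate 2, without either library of GR1395 (adjusted p up to 0.101) and with the length trend removed. The call of gpdh-2 did not hold without N2 replicate 2 or GR1395 replicate 1 (highest adjusted p = 0.209). For osm-11 it did not hold without either library of GR1395 (highest adjusted p = 0.171).

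Genes tied to the same p38 kinase in the intestine were not moved in 1 direction. Of 10 such genes, edgeR called 0 higher (1 at an unadjusted p under 0.05, 0 by DESeq2 or limma) and 2 lower in HW3826, and 2 were higher and 3 lower in GR1395, beside 3.54% and 2.46% of all tested genes in HW3826, and 7.93% and 8.15% in GR1395. The infection-response gene irg-5 had 47.3 and 23.4 CPM in GR1395, against 7.76 and 9.55 CPM in N2 (log2 difference 2.03, adjusted p = 0.0362), a call lost when any library of N2 or HW3826 was left out (reaching an adjusted p of 0.267). The gene K08D8.5 was lower in GR1395, at 8.49 and 9.21 CPM against 15.3 and 17.01 CPM in N2 (-0.87, adjusted p = 0.000395), and in HW3826, at 10.9 and 11.8 CPM (-0.51, adjusted p = 0.0140, lost without N2 replicate 2 or HW3826 replicate 1 at up to 0.0989). The lectin gene clec-85 was lower in both, with log2 differences of -0.46 (adjusted p = 0.00965) in HW3826 and -0.36 (adjusted p = 0.0195) in GR1395, atf-7 was higher in GR1395 (0.33, adjusted p = 0.0145), and dod-22 was lower in GR1395 (-1.15, adjusted p = 0.0478). The dod-22 call was lost without any 1 library of N2 or HW3826 (log2 differences -1.79 to -0.72 over the leave-outs, adjusted p up to 0.3001). That of atf-7 was lost without N2 replicate 2 or either library of GR1395 (adjusted p up to 0.09498). For clec-85 the HW3826 call was lost without HW3826 replicate 1 (adjusted p = 0.0702), and the GR1395 call when replicate 2 of N2 or of GR1395 was left out (highest adjusted p = 0.148). The irg-5 and dod-22 calls were also lost with only the strains compared or without the expression filter, and that of irg-5 with the length trend removed. Of the list's calls in GR1395, K08D8.5 was the 1 that held in each leave-out.

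Markers of other tissues also moved with the strains, and their part in the results above was not tested. The summed level of 6 intestinal markers was 8191 to 8249 CPM in HW3826, 6041 to 6397 CPM in GR1395 and 7539 to 7718 CPM in N2. Its members did not move together: elt-2, the gene of a GATA factor of the intestine, was called higher in HW3826 (log2 difference 0.68, adjusted p = 0.00248) and in GR1395 (0.59, adjusted p = 0.00399, lost without GR1395 replicate 1 at 0.0627). The protease genes cpr-6 in HW3826 (-0.39, adjusted p = 0.0370) and asp-1 in GR1395 (-0.34, adjusted p = 0.0167) were called lower, both lost in leave-outs (adjusted p up to 0.329 and 0.144). That of 5 body wall muscle markers was 5869 to 6084 CPM in HW3826, 6049 to 6135 CPM in GR1395 and 4987 to 5248 CPM in N2, with 1 muscle marker called higher in HW3826 and 2 in GR1395. That of 6 neuronal markers was 1193 to 1225 CPM in HW3826, 1343 to 1363 CPM in GR1395 and 1210 to 1296 CPM in N2, with 1 neuronal marker called higher in GR1395. The 4 pharyngeal markers summed to 2185 to 2203 CPM in HW3826, 2433 to 2489 CPM in GR1395 and 1925 to 2111 CPM in N2, with 3 called higher in GR1395. All of these muscle, neuronal and pharyngeal calls were lost with the length trend removed. Except for the muscle gene myo-3 in GR1395, each was also lost in leave-outs. The 5 germline markers summed to 85.4 to 92.8 CPM in HW3826, 70.5 to 76.1 CPM in GR1395 and 79.1 to 90.8 CPM in N2, with 2 called lower in GR1395 and nos-2 listed at 0 in 1 GR1395 library. Of the 2, the call of nos-2 was lost in leave-outs. Among the epidermal markers themselves, sym-1, a gene of an extracellular matrix protein, was called higher in HW3826, at 25.8 and 29.2 CPM against 19.4 and 21.0 CPM in N2 (log2 difference 0.44, adjusted p = 0.0271, lost without N2 replicate 1 or HW3826 replicate 2 at up to 0.253). It was called lower in GR1395, at 7.55 and 9.07 CPM (-1.29, adjusted p = 3.72e-05). Of the other epidermal markers, rol-6 had too few counts to be tested and 8 were not called in either strain against N2.

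The genes whose pattern over the 6 libraries was most like that of the peptides were found by Pearson correlation of log2 levels among 11264 genes with a mean of at least 2 CPM. For the summed nlp genes they were C25E10.10 (r = 0.988), nhr-210 (0.988), glb-29 (0.972), T01D1.3 (0.956) and nex-1 (0.956). For the summed cnc genes they were cest-27 (0.995), T08B1.4 (0.988), comt-3 (0.988), F17C11.11 (0.983) and ttm-1 (0.979). Of these, comt-3 had 21.7 and 19.7 CPM in HW3826 and 23.5 and 17.5 CPM in GR1395, against 12.3 and 15.5 CPM in N2. Only comt-3 and T08B1.4 were called against N2, in both array strains, and these calls were lost in leave-outs. The first match of the cnc sum, cest-27, was not called, with folds over N2 of 1.13 in HW3826 and 1.13 in GR1395. All genes matched to the nlp sum had overlapping libraries in each comparison. These genes were picked for following the peptides over the same libraries, so a difference between strains in them repeats that choice and is no separate result. The values describe these 6 libraries only.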

How the data were processed

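Strand-marking poly(A) libraries (Illumina Stranded mRNA Prep) were read from both ends, per the labels' protocols. HISAT2 (version 1.10.0) and the build ce11 are named in the submitters' processing notes. What they were used for, and how strand entered the counting, is not given in the sources used here. For each gene the authors deposited a raw count per library, a length, and log2 values, each of which equals log2 of the count scaled to the mean library total plus 8. Counts were tested with edgeR 4.0.16 (R 4.3.3): trimmed-mean scaling, default expression filter, robust quasi-likelihood fit of all 6 libraries with 1 coefficient per strain, Benjamini-Hochberg adjustment over the 15024 genes kept, threshold 0.05. Intervals are 95% intervals of that fit. With 2 libraries per strain the fit had 3 residual degrees of freedom. When 1 library was left out, the strain's other library was assumed to vary like the other strains.

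Alternatives were other size factors, DESeq2 1.42.0, limma 3.58.1 on the deposited log2 values, other filters, only the strains compared, the length trend removed, each library left out, and the replicate number as a block. On counts simulated with the estimated spreads the imposed differences were recovered, and the share of false calls was above the nominal threshold. Of 20190 identifiers, 20105 were matched to names and positions in the WBcel235 annotation (Ensembl release 115). The 8 genes, the lists, and the rule for named genes (members, list genes past the threshold, neighbours up to 3 genes away, and the 5 most alike genes per family) were chosen with earlier results of these data known. Peptide and promoter sequences were not used here.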

Additional observations from a re-analysis of the deposited data

Results flagged for a closer look

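The response of nlp-28 differed between the array strains when they were tested directly. Its log2 difference between HW3826 and GR1395 was -0.51 (adjusted p = 0.00980, edgeR), with 12.04 and 10.13 CPM in HW3826 and 16.8 and 14.8 CPM in GR1395, both strains being below the 18.6 and 20.6 CPM of N2. The difference was lost without HW3826 replicate 2 (adjusted p = 0.0943) and without GR1395 replicate 1 (adjusted p = 0.118). No group has enough libraries for a test of single libraries that stand apart.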

How the results depend on the processing

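Over the 24 member differences and 17 alternatives, 356 of 408 values kept their direction and side of the threshold, 26 gained a call, 4 lost one and 22 reversed sign. Only nlp-28, in HW3826 against N2, was called under all 17. Leaving out 1 library at a time moved the genes called to between 378 and 1191 (HW3826 against N2, 902 with all libraries), 656 and 3428 (GR1395 against N2, 2416) and 745 and 2940 (HW3826 against GR1395, 2179). Members called higher ranged over 0 to 2 in HW3826 against N2, 0 to 4 in GR1395 against N2 and 0 to 1 in HW3826 against GR1395, and members called lower over 0 to 1 in GR1395 against N2 and 0 to 2 in HW3826 against GR1395. Members called higher were 2 in HW3826 against N2 with only the strains compared and 2 in GR1395 against N2 by DESeq2. Members called lower in GR1395 against N2 were 1 without a filter. With the length trend removed, 1 member was higher in HW3826 against GR1395. The causes of these changes were not tested.

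Reversed signs came from differences with intervals that span 0. In leave-outs, HW3826 against N2 ranged from -0.18 to 0.18 for nlp-29, -0.13 to 0.17 for nlp-30 and -0.11 to 0.15 for nlp-31, and GR1395 against N2 from -0.50 to 0.23 for nlp-29. HW3826 against GR1395 ranged from -0.44 to 0.21 for nlp-27, -0.21 to 0.52 for nlp-29, -1.15 to 0.22 for nlp-34, -0.90 to 0.27 for cnc-2 and -0.45 to 0.66 for cnc-4. The cnc-4 value was also 0.0044 by DESeq2, 0.026 by limma and 0.058 with the length trend removed.

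Replicate numbers are shared between strains, but same-numbered libraries did not deviate together (correlations -0.18, 0.014 and 0.0097), so they were not taken as pairs. With the replicate block, 594 genes were called in HW3826 against N2, and nlp-29 there was -0.0086 and cnc-4 in HW3826 against GR1395 was 0.0255. With the block and the length trend removed, cnc-4 was 0.085 and 2 members were called higher in HW3826 against GR1395. The block crossed for N2, chosen after seeing the data, called 1532 genes in HW3826 against N2, with 3 members higher in each strain against N2, 2 lower in GR1395 against N2 and 1 higher in HW3826 against GR1395, where cnc-4 was 0.039.

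Depth did not limit detection of the members, but cnc-2 rested on 10 and 27 counts in N2.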
